A study of Mus musculus with 14 samples.

Results

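Among 21755 promoters of protein-coding genes in mouse embryonic stem cells (mESC), 3005 (13.8%, 95% Wilson interval 13.4% to 14.3%) lay in an H3K27me3 island and had no H3K4me3 island in untreated cells. A promoter was the window of 1 kb either side of the transcription start site (TSS) of a GENCODE gene record on chromosomes 1 to 19 and X, and 1 bp of overlap with a called region sufficed. These promoters are called H3K27me3-only promoters here. The remaining promoters carried both marks (4654, bivalent), H3K4me3 without H3K27me3 (7755) or neither mark (6341). The promoters were selected on the control lists of H3K27me3 and H3K4me3, so values of H3K27me3 and H3K4me3 in either condition are given as a description with no test.

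The cells were 81K1, 1 clonal line (clone K1) derived from OG2 mESC, in which an shRNA against Smarcb1 was placed in the Rosa26 locus under the control of doxycycline. Control cells were 81K1 without doxycycline, and Smarcb1 kd cells were 81K1 given 1 µg/ml doxycycline daily and collected after 72 h. Both carried the same shRNA cassette and grew in medium with serum and leukaemia-inhibitory factor. Chromatin was immunoprecipitated with antibodies against H3K27me3, Ezh2, H3K4me3, H3K27ac and Smarca4, with 1 library per antibody and condition. There were therefore no replicates, no test between conditions was made, and every interval below covers counting error only. Growth without doxycycline was the only control, so an effect of doxycycline itself cannot be told apart from the knockdown.

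H3K27me3 is written by Polycomb repressive complex 2 (PRC2), whose catalytic subunit is Ezh2, and is found over genes that are kept silent. H3K4me3 is found at the starts of active genes and, together with H3K27me3, at the bivalent promoters of developmental genes. In mESC both marks centre on CpG islands, stretches of DNA in which the CpG dinucleotide has not been depleted. H3K27ac marks active promoters and enhancers, and Smarca4 is the ATPase of the BAF chromatin remodelling complex, of which Smarcb1 is a core subunit.

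The 10 lists held 22900 control and 18311 kd islands of H3K27me3, 25873 and 33128 of H3K4me3, 38737 and 50700 of H3K27ac, and 6706 and 5364 peaks of Ezh2 and 78960 and 72126 of Smarca4. List lengths differed between conditions, and without read counts in the files the depth of each library is unknown here. MACS2 scores and SICER p-values describe how far a region stood above the background sample of 1 library and do not compare conditions. A promoter without a called region may still hold signal below the caller's limit. Of 8 pluripotency marker genes, 6, among them Pou5f1, Sox2 and Nanog, had H3K4me3 without H3K27me3 in control. Klf4 was bivalent. Esrrb was an H3K27me3-only promoter at the start of its gene record. The lists give no measure of the amount of Smarcb1, whose own promoter had H3K4me3, H3K27ac and Smarca4 in both conditions.

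The DNA sequence of the H3K27me3-only promoters differed from that of the other classes in its medians, and the ranges overlapped. The 250 bp upstream of the TSS are printed for 5 H3K27me3-only promoters to show how far they range in CpG content. Vwa2 and Nr5a2 had the highest and the lowest CpG ratio among the 30 genes named by rule for their extreme values in a list, and Pax6, Apc2 and Esrrb were chosen after their values were seen. All 5 stretches lie upstream of the annotated start and in no annotated exon. They were read from the RefSeq sequence of GRCm38.p6 on the strand of the gene, 5′ to 3′, with each CpG in capitals. Vwa2 lies at chr19:56873999-56874248 on the plus strand and holds 28 CpG, Pax6 at chr2:105668650-105668899 on the plus strand with 15 CpG, and Apc2 at chr10:80295727-80295976 on the plus strand with 11 CpG. Esrrb at chr12:86360867-86361116 on the plus strand holds 6 CpG, and Nr5a2 at chr1:136960449-136960698 on the minus strand holds 2.
Vwa2: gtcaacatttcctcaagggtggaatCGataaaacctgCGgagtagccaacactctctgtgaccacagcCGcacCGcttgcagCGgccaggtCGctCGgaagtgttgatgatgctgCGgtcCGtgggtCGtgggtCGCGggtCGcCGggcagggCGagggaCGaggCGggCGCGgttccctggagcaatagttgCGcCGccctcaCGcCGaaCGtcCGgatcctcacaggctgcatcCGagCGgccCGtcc
Pax6: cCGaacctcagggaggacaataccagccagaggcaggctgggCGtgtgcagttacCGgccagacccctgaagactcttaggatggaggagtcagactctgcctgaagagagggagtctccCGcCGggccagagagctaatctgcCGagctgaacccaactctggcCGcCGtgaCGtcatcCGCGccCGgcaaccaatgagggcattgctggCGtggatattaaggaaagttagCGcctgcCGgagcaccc
Apc2: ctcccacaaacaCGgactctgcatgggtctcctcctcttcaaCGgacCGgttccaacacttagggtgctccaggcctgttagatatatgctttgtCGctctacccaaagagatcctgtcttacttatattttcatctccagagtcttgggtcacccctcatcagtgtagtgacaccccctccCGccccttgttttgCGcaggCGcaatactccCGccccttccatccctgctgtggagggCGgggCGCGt
Esrrb: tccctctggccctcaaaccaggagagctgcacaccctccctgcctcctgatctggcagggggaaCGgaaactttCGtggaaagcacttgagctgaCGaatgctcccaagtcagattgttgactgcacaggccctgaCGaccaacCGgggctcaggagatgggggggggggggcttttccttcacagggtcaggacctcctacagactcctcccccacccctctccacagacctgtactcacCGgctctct
Nr5a2: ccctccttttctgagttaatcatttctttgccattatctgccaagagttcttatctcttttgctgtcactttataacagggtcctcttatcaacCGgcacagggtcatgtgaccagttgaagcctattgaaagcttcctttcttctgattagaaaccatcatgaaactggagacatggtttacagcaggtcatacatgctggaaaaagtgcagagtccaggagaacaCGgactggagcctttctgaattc

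After Smarcb1 kd these 5 promoters differed in their calls. Vwa2, a secreted matrix protein, had H3K27me3 and Smarca4 in both conditions and was called for Ezh2 (score 399) and H3K4me3 (SICER p of 6.63e-68) in kd alone. Pax6, a transcription factor of eye and brain, had H3K27me3, Ezh2 and Smarca4 in both conditions and no H3K4me3 in either. Another annotated start of Pax6, 6291 bp away, had H3K4me3 in control. Apc2, a neuronal relative of the Wnt pathway scaffold Apc, had H3K27me3 in both conditions over 977 bp of its 2001 bp window and an H3K4me3 island with p listed at 0 in kd. A Smarca4 peak (score 52) was called at Apc2 in control alone. Esrrb, an orphan nuclear receptor of the pluripotency network, had H3K27me3 in both conditions, with a SICER p of 3.13e-120 in control and 5.5e-12 in kd, and no other region. Another annotated start of Esrrb, 60527 bp away, had H3K4me3 in control. Nr5a2, another nuclear receptor, had H3K27me3 (SICER p of 3.8e-20) and H3K27ac (SICER p of 2.61e-20) in control alone. A Smarca4 peak (score 42) was called there in kd alone. Another annotated start of Nr5a2, 6818 bp away, had H3K4me3 in control.

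Over the whole 2001 bp window, the median ratio of observed to expected CpG was 0.287 at H3K27me3-only promoters (quartiles 0.196 and 0.403). This ratio sets the number of CpG against that given by the C and G content alone. It was 0.632 at bivalent promoters, 0.641 at promoters with H3K4me3 only, 0.158 at promoters with neither mark and 0.478 over all promoters. By the median, the H3K27me3-only promoters thus lay between the classes with H3K4me3 and the unmarked class. Quartiles were 0.524 and 0.731 at bivalent and 0.107 and 0.233 at unmarked promoters, the latter overlapping those of the H3K27me3-only class. The GC content of H3K27me3-only promoters (median 51.4%) was below that of bivalent promoters (57.3%) and above that of unmarked promoters (42.7%). The TATA box letters TATAAA, searched on both strands of the 250 bp upstream, were found at 10.9% of H3K27me3-only promoters, 6.12% of bivalent, 22.5% of unmarked and 11.5% of all promoters. The GC box letters GGGCGG, searched likewise, were found at 26.9%, 62.9%, 7.11% and 39.3%, in the same order. H3K27me3-only promoters made up 15.9% of all promoters with a CpG ratio below 0.2, 31.0% at 0.2 to 0.3, 36.6% at 0.3 to 0.4, 20.8% at 0.4 to 0.5 and 3.29% at 0.5 and over.

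The H3K27me3 islands over these promoters were broad. Their median width was 10200 bp (quartiles 5800 and 19600 bp) and the widest, over the Hoxc cluster, reached 260400 bp. The island covered the whole window at 2223 of the 3005 promoters (74.0%). There were 2644 islands in all, of which 2371 held a single H3K27me3-only promoter and 273 held more, with 634 promoters among them. These promoters are not independent, and 367 (12.2%) shared their island with a bivalent promoter. The nearest H3K4me3 island in control lay a median of 22623 bp from the TSS. At 303 of the genes (10.1%) another annotated start of the same gene had H3K4me3 in control, so that the class describes the start of the gene record and not the gene. In 1496 promoters (49.8%) the H3K27me3 island was the only region called in the 5 control lists. At the edge of the rule, 18 of the promoters had an H3K4me3 island that began within 200 bp of the window, and 31 bivalent promoters had 200 bp or less of H3K4me3 in it. The rule's other edge had 22 promoters with 200 bp or less of H3K27me3, and 36 promoters outside the class whose H3K27me3 island began within 200 bp of the window.

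Smarca4, which the rule did not use, was called at 1472 of the 3005 promoters in control (49.0%, 47.2% to 50.8%) and at 1410 in kd (46.9%, 45.1% to 48.7%). Over all promoters the shares were 63.0% and 64.0%. Bivalent promoters had a Smarca4 peak at 97.5% in control and 97.8% in kd, and unmarked promoters at 8.12% and 7.92%. The H3K27me3-only class stood between the last 2 classes, with intervals that did not overlap. In both conditions 1194 promoters were called. Of those with a control peak, 278 (18.9%, 17% to 21%) had none in kd, against 4.31% of all promoters with a control peak. This share was 1.34% in the bivalent and 31.5% in the unmarked class. Of the H3K27me3-only promoters without a control peak, 216 (14.1%, 12.4% to 15.9%) had a peak in kd alone, against 10.1% of all promoters without one. Here the bivalent and unmarked classes had 65.0% and 2.56%. The peaks called in a single condition had low MACS2 scores, with a median of 54.5 for control alone and 46.5 for kd alone. At promoters called in both, the median score was 109 in control and 83 in kd. These scores are not scaled between libraries. Where at least 500 bp of a peak had to lie in the window, the shares were 31.5% in control and 25.3% in kd.

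An Ezh2 peak lay at 177 of the promoters (5.89%, 5.10% to 6.79%) in control and at 361 (12%, 10.9% to 13.2%) in kd. Over all promoters the shares were 7.19% and 12.7%, near those of the class. Bivalent promoters had Ezh2 at 29.2% and 50.8%. Of the 177 promoters with Ezh2 in control, 17 (9.60%, 6.08% to 14.8%) had no peak in kd, against 3.96% of all promoters with a control peak. The share was 1.47% at bivalent promoters, and 9 of 10 unmarked promoters lost the call. Of the 2828 H3K27me3-only promoters without, 201 (7.11%, 6.22% to 8.11%) had a peak in kd alone, against 6.28% of all promoters without a control peak and 31.1% of bivalent ones. The share of newly called promoters was thus near that of all promoters. At the 160 promoters called in both conditions the median score was 84 in control and 230 in kd. The kd list was the shorter of the Ezh2 lists. Where at least 500 bp of a peak had to lie in the window, the shares were 3.22% and 8.0%.

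H3K27ac was rare. It was called at 41 promoters (1.36%, 1.01% to 1.85%) in control and at 169 (5.62%, 4.86% to 6.51%) in kd. Over all promoters the shares were 16.1% and 31.2%, and promoters with H3K4me3 only had H3K27ac at 37.8% and 65.7%. Unmarked promoters had it at 3.78% in control and 5.63% in kd, the latter near the share of the class. Of the 41, 18 (43.9%, 29.9% to 59.0%) had none in kd, against 11.5% of all promoters with control H3K27ac. The share was 17.8% at bivalent and 36.7% (30.8% to 42.9%) at unmarked promoters. Of the 2964 H3K27me3-only promoters without, 146 (4.93%, 4.20% to 5.76%) had it in kd alone, against 20.2% of all promoters without control H3K27ac. Bivalent and unmarked promoters had 21.2% and 3.36% here. The kd list of H3K27ac was the longer one, and with lists of equal length the shares were 1.32% in control and 3.82% in kd. A stricter threshold on all lists, which kept H3K27ac islands with −log10 p from 10 upwards, left 0.424% and 2.90%.

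**Figure D1:**
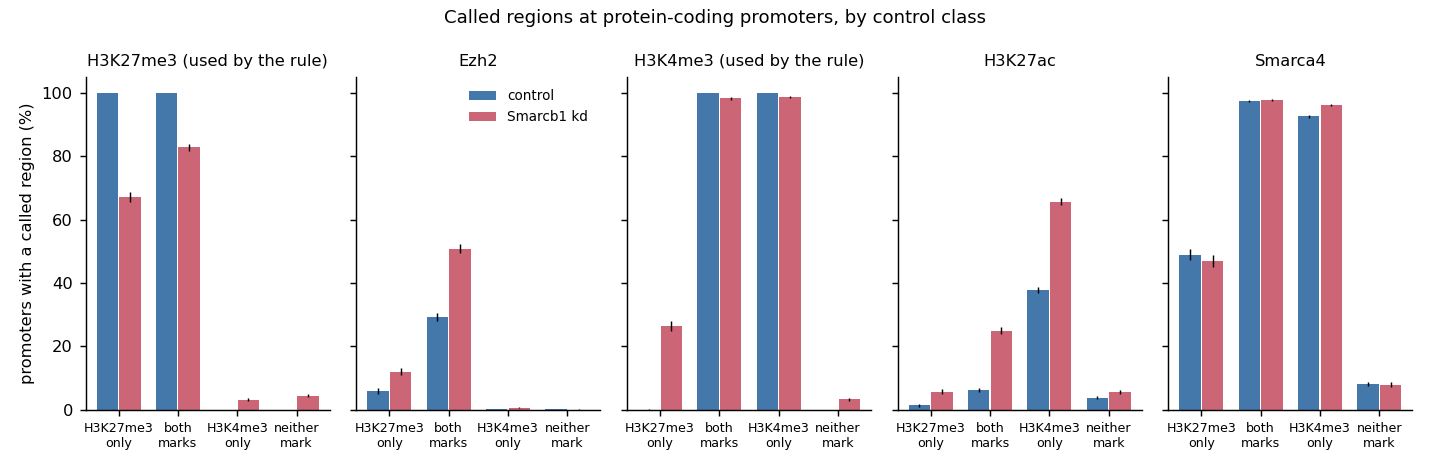
Percent of promoters with a called region of each antibody (y axis) in the 4 control classes of promoters (x axis), with blue bars for control and red bars for Smarcb1 kd. Error bars are 95% Wilson intervals over promoters of 1 library each. The H3K27me3-only class has Smarca4 at 49.0% and 46.9% of promoters, between the bivalent class (97.5% and 97.8%) and the unmarked class (8.12% and 7.92%).

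H3K27me3 itself was called in kd at 2018 of the 3005 promoters (67.2%, 65.5% to 68.8%) and was missing at 987 (32.8%). The background was 23.3% of all promoters with control H3K27me3 and 17.2% of bivalent promoters. Promoters whose island was called again lay in wider islands, with a median of 12000 bp against 7200 bp. The control p was listed at 0 for 38.9% of the former and 8.0% of the latter, and it was above 1e-20, nearer to the limit of the list, for 4.51% and 33.5%. By width, the share called again was 47.7% in islands under 5000 bp, 60.2% from 5000 to 10000 bp, 73.5% from 10000 to 20000 bp and 83.7% above. In the same width classes it was 59.8%, 82.2%, 91.5% and 94.0% at bivalent promoters, higher in each.

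An H3K4me3 island was called in kd at 796 of the 3005 promoters (26.5%, 24.9% to 28.1%). The background was 10.8% of all promoters without control H3K4me3, and 3.31% of the unmarked class. These islands were narrow, with a median width of 1400 bp (quartiles 1000 and 2000 bp) against 2000 bp at bivalent promoters in kd. Their median p was 6.11e-27, and 538 of the 796 promoters had p at or below 1e-20. At 779 of the 796 promoters the island overlapped no H3K4me3 island of the control list. The kd list of H3K4me3 was longer, and with lists of equal length the share was 19.8%. When the conditions exchanged roles, 1666 promoters had H3K27me3 without H3K4me3 in kd, and 4.62% of these had H3K4me3 in control. The part of the list lengths in this difference was not tested beyond that alternative.

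In kd, 1328 of the promoters (44.2%) were still called for H3K27me3 without H3K4me3, and 690 (23.0%) were called for both marks. Another 881 (29.3%) had neither mark, and 106 (3.53%) had H3K4me3 without H3K27me3. The 690 promoters with both marks had a median CpG ratio of 0.451, and 93.5% of them had Smarca4 in control. Those still called for H3K27me3 alone had a ratio of 0.270 and Smarca4 at 40.4%, and those with neither mark 0.211 and 22.7%. H3K27ac was called in kd at 29.2% of the 106 promoters with H3K4me3 alone, against 5.51% of those with both marks and 2.86% of those with H3K27me3 alone. Ezh2 was called in kd at 40.4% of the promoters with both marks and at 6.10% of those with H3K27me3 alone.

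Most promoters with H3K4me3 in kd had Smarca4 in control. Of the 796 promoters with H3K4me3 in kd, 736 (92.5%) had Smarca4 in control. H3K4me3 was called in kd at 50.0% of the 1472 promoters with control Smarca4 and at 3.91% of the 1533 without. By the score of the control Smarca4 peak, the share was 23.4% below 50, 42.9% from 50 to 100, 61.4% from 100 to 200 and 78.8% at 200 and over. The CpG ratio moved with it, from a median of 0.306 in the lowest class to 0.454 in the highest. Within classes of CpG ratio the difference remained. Below 0.2, H3K4me3 was called in kd at 10.6% of promoters with control Smarca4 and 0.870% of those without, from 0.3 to 0.4 at 47.0% and 6.01%, and at 0.5 and over at 78.4% and 33.3%. H3K27me3 was called in kd at 50.4% of promoters both with and without Smarca4 below 0.2, and at 80.6% and 63.9% from 0.3 to 0.4.

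Every measure but H3K27ac followed the CpG ratio. From the lowest of the 5 CpG classes to the highest, Smarca4 was called in control at 14.1%, 38.5%, 63.9%, 81.3% and 85.9% of the H3K27me3-only promoters. Ezh2 was called in control at 0.623%, 0.895%, 1.39%, 7.83% and 35.9%, and in kd at 0%, 0.384%, 7.43%, 26.3% and 57.6%. A count of 0 of 803 promoters allows up to 0.476%. H3K4me3 was called in kd at 2.24%, 9.08%, 32.2%, 58.5% and 72.1%, and H3K27me3 at 50.4%, 56.0%, 74.6%, 86.6% and 93.2%. H3K27ac in kd stayed between 4.73% and 7.67% in all 5 classes. Most Ezh2 calls therefore lay at CpG ratios of 0.4 and over. At 0.5 and over, H3K27me3-only and bivalent promoters had Ezh2 at 35.9% (31.0% to 41.1%) and 33.7% (32.2% to 35.2%) in control and at 57.6% (52.3% to 62.8%) and 56.3% (54.7% to 57.9%) in kd, with overlapping intervals. From 0.4 to 0.5 the shares were 7.83% (5.66% to 10.7%) and 13% (10.7% to 15.9%) in control, and 26.3% (22.3% to 30.6%) and 34.5% (30.9% to 38.2%) in kd, the latter with intervals apart. Smarca4 differed from both neighbours at like CpG ratio. From 0.3 to 0.4 it was called in control at 63.9% (60.2% to 67.5%) of H3K27me3-only, 90.0% (84.9% to 93.5%) of bivalent and 24.3% (21% to 28.0%) of unmarked promoters.

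**Figure D2:**
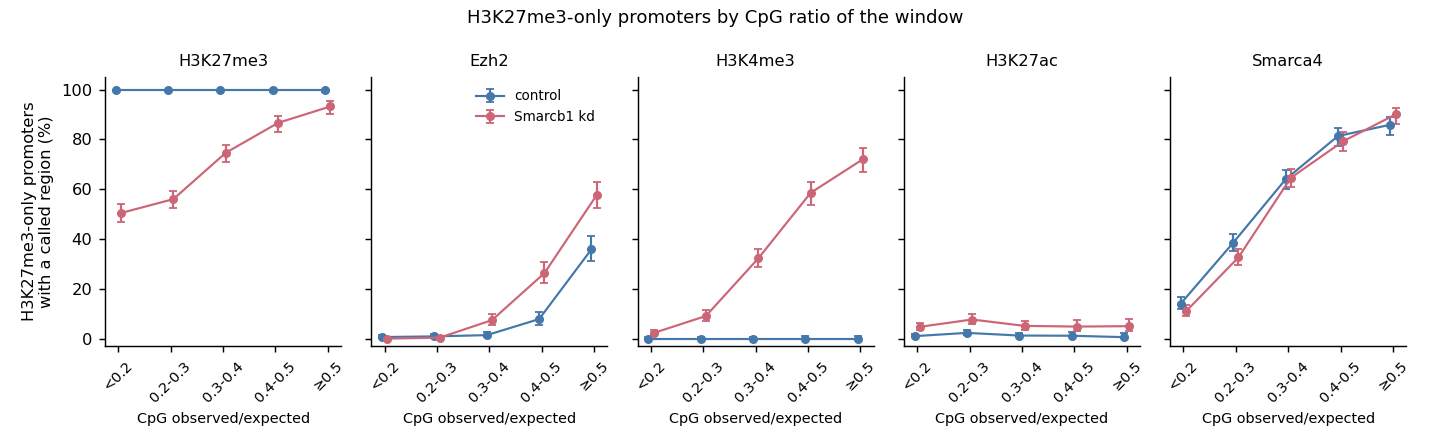
Percent of H3K27me3-only promoters with a called region (y axis) in 5 classes of CpG observed/expected ratio (x axis), with control in blue and Smarcb1 kd in red, and 95% Wilson intervals as bars. H3K27me3 is 100% and H3K4me3 is 0% in control by the rule. Smarca4 in control runs from 14.1% to 85.9% and H3K4me3 in kd from 2.24% to 72.1%, whereas H3K27ac in kd stays between 4.73% and 7.67%.

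Around the TSS the regions had different shapes. Over all 3005 promoters, coverage by H3K27me3 was highest 200 bp downstream of the TSS in control (95.5%) and 400 bp downstream in kd (63.6%), and 35.0% of promoters were still covered 10 kb upstream in control. Smarca4 was highest 200 bp downstream, with 33.3% in control and 28.6% in kd, as was Ezh2 with 3.26% and 8.49%. At promoters with a CpG ratio of 0.3 or more, H3K4me3 in kd reached 46.8% and Smarca4 in control 55.8% at the same place. With ratios under 0.3 the TSS itself was covered by Ezh2 at 0.126% of promoters in control and 0.0631% in kd. H3K27ac was lower around the TSS than 10 kb upstream, with 0.466% against 4.29% of promoters in control and 2.40% against 7.15% in kd.

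**Figure D3:**
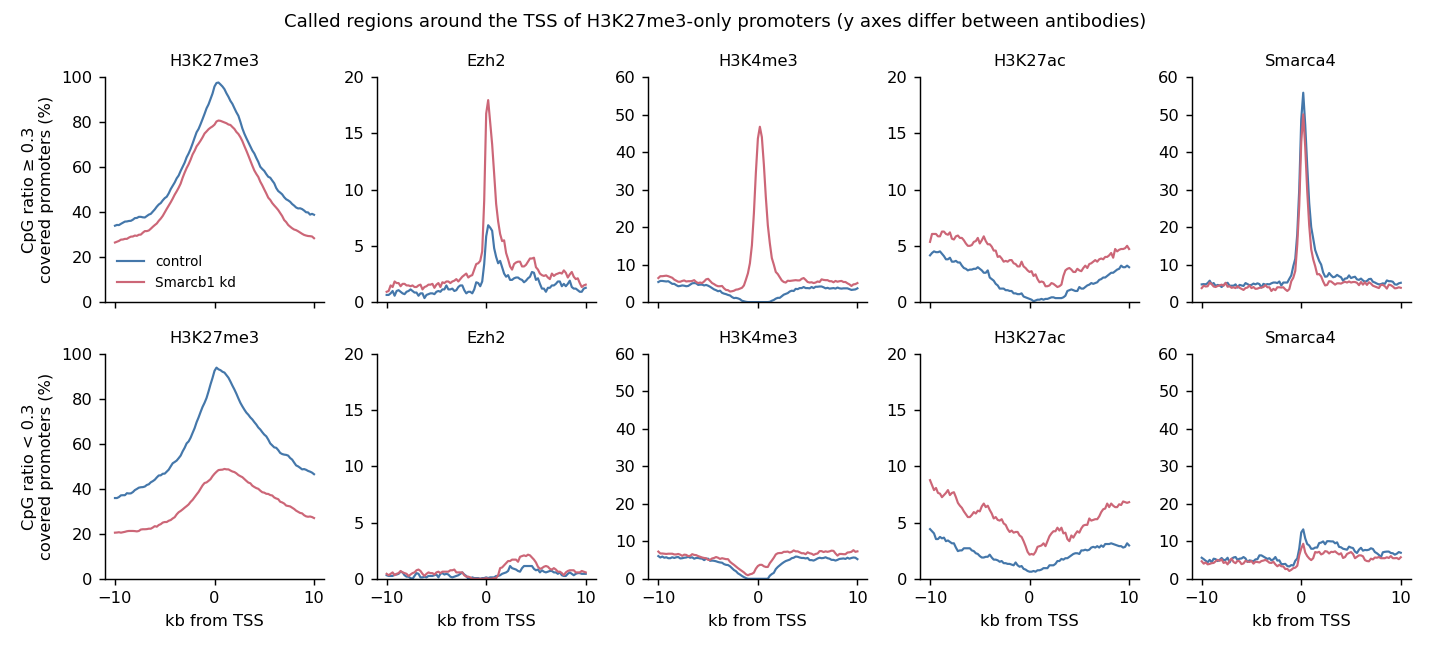
Percent of H3K27me3-only promoters covered by a called region (y axes, which differ between antibodies) by distance from the TSS in kb (x axis), for CpG ratios of 0.3 or more (top) and under 0.3 (bottom), in control (blue) and Smarcb1 kd (red). H3K4me3 in kd and Smarca4 form narrow peaks at the TSS of CpG-richer promoters, reaching 46.8% and, in control, 55.8%, while H3K27me3 extends beyond 10 kb.

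The Hox genes, homeodomain transcription factors that set position along the body axis, lay in the class more often than any of the other 24 gene families examined. Of 39 Hox promoters 26 (66.7%, 51.0% to 79.4%) were H3K27me3-only and 13 were bivalent. All 26 had H3K27me3 in kd, Ezh2 was called at 20 in control and 23 in kd, Smarca4 at 21 and 22, and H3K4me3 in kd at 10. Over the whole class H3K27me3 was called in kd at 67.2%, and Ezh2 at 5.89% in control and 12% in kd. Smarca4 was called at 49.0% of the class in control and 46.9% in kd, and H3K4me3 in kd at 26.5%. The 26 Hox promoters lay in few islands, and counting 1 gene per island left 3. Hoxc11 had Ezh2 with a score of 204 in control and 600 in kd, Smarca4 with 57 and 75, and H3K4me3 in kd with a SICER p of 9.33e-62. Hoxc12 had Ezh2 scores of 258 and 670 and Smarca4 scores of 140 and 116, without H3K4me3 in either condition. Hoxc4, in the same island, had a CpG ratio of 0.17 and no region other than H3K27me3 in both conditions. Hoxc10 and Hoxc5 lie close together and had the same H3K4me3 island in kd, with a SICER p of 5.08e-14, while their control Ezh2 scores were 38 and 83. Another start of Hoxc5, 46372 bp away, had H3K4me3 in control.

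Other families of developmental regulators were mostly bivalent, with fewer H3K27me3-only promoters. The Sox, Tbx, Pax and Gata factors had 13 of 47 promoters in the class and 27 bivalent. Ezh2 was called at 10 of the 13 in control and 9 in kd. Of these 13, 7 remained when genes with H3K4me3 at another start were left out. Forkhead factors had 10 of 44 and Wnt ligands and Frizzled receptors 7 of 29, beside 13.8% of all promoters. All 7 Wnt and Frizzled promoters had H3K27me3 in kd and 5 had H3K4me3 there, beside 67.2% and 26.5% of the class. Wnt1, a signal of the midbrain, had Ezh2 scores of 130 in control and 336 in kd, Smarca4 scores of 99 and 109, and H3K4me3 in kd with a SICER p of 4.45e-22.

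Families of adhesion, signalling and structural genes differed in their calls. Cadherins and protocadherins, adhesion molecules many of which are arrayed in clusters, had 47 of 92 promoters in the class, beside 13.8% of all promoters. H3K27me3 was called in kd at 43 of these, H3K4me3 at 11, and Smarca4 at 10 in control and 18 in kd. Over the whole class H3K27me3 was called in kd at 67.2%, H3K4me3 at 26.5%, and Smarca4 at 49.0% in control and 46.9% in kd. Interleukins and their receptors had 34 of 82, chemokines and their receptors 17 of 52, and collagens and laminins, proteins of the extracellular matrix, 21 of 56. Among the 21 of the last family, 20 had H3K27me3 in kd, 11 H3K4me3 in kd and 16 Smarca4 in control. Keratins and keratin-associated proteins of epithelia and hair had 45 of 113, none of the other 68 bivalent. Of the 45, 30 had H3K27me3 in kd, a share near that of the class, 3 had H3K4me3 in kd and 8 had Smarca4 in control. The keratins thus had smaller shares with H3K4me3 in kd and with control Smarca4 than the collagens and laminins. The median CpG ratios of these families were 0.240 and 0.348. The difference was not tested, and some keratins, such as Krt75, Krt82, Krt84 and Krt90, share an island. Krt18, a keratin of simple epithelia, stood apart from most keratins with a ratio of 0.42. It had Ezh2 scores of 194 in control and 69 in kd, Smarca4 scores of 190 and 113, and H3K4me3 in kd with a SICER p of 1.09e-46.

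Channels and transporters were spread over the classes. Ion channels had 43 of 162 promoters in the H3K27me3-only class, glutamate and GABA receptors 14 of 46, solute carriers 75 of 371 and axon guidance genes 12 of 62. Cytochrome P450 enzymes had 17 of 100 and integrins 5 of 31, beside 13.8% of all promoters. In these 6 families H3K4me3 was called in kd at 17, 2, 24, 6, 6 and 4 promoters of the class, beside 26.5% over the class as a whole. Slit1, an axon guidance ligand, had Smarca4 scores of 282 in control and 190 in kd, and Ezh2 (score 175) and H3K4me3 (SICER p of 1.14e-85) in kd alone.

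The remaining families lay below the share of 13.8% over all promoters. Olfactory receptors had 29 of 1135 (2.56%, 1.78% to 3.65%), vomeronasal receptors 1 of 331 and taste and trace amine receptors 0 of 53, which allows up to 6.76%. Most of their promoters had neither mark. The olfactory receptors in the class numbered 17 under the stricter threshold and 54 with the roles of the conditions exchanged. Lectin-like receptors had 2 of 56. Cornified envelope proteins had 4 of 36, serpins 6 of 61 and defensins 5 of 64, and the intervals of these 3 families include 13.8%. Zinc finger proteins had 15 of 394, clustered histones 2 of 67 and ribosomal proteins 4 of 98, with H3K4me3 only at most of the remainder. The last list was made from symbols and its members include Rps6kl1, a kinase-like gene, and Rpl10l, a retrocopy of a ribosomal gene.

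**Figure D4:**
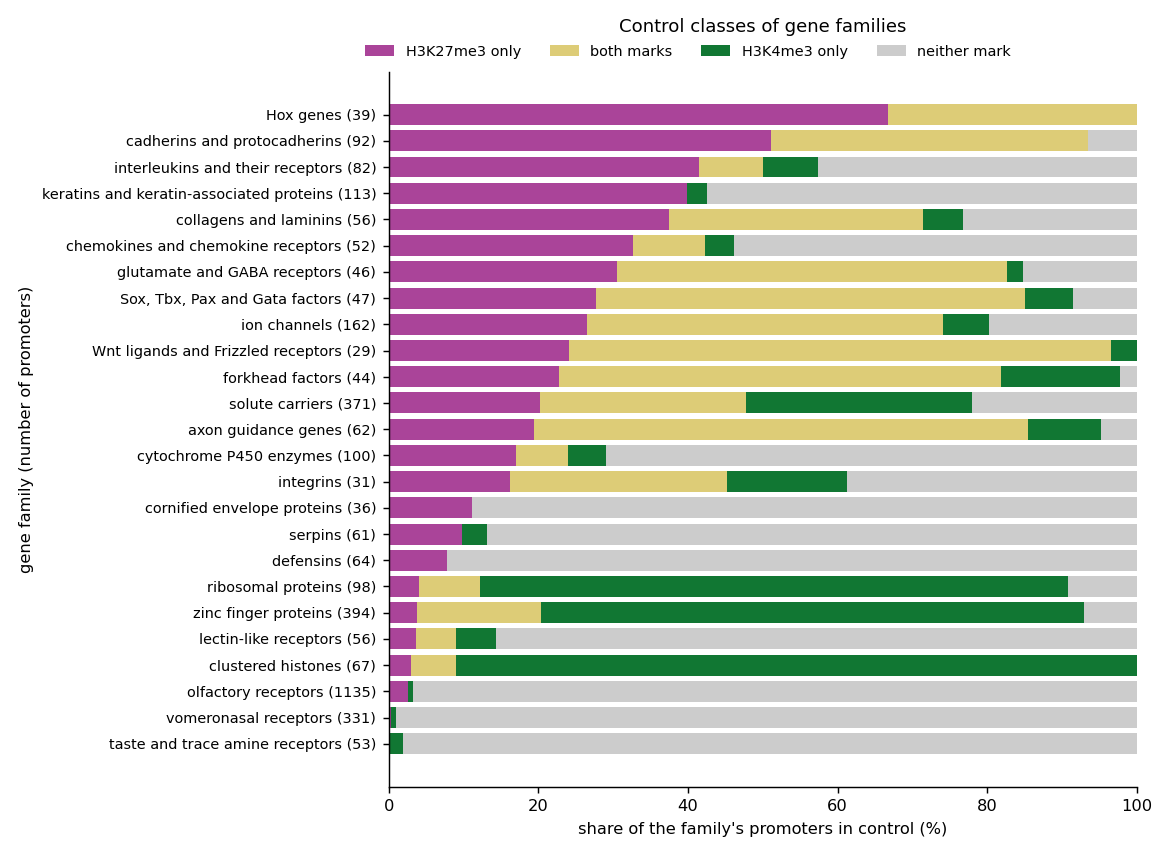
Share of the promoters of 25 gene families (x axis, percent) in the 4 control classes, ordered by the share of H3K27me3-only promoters (purple), with the number of promoters in brackets. Hox genes reach 66.7% and cadherins and protocadherins 51.1%, while olfactory receptors reach 2.56%.

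The highest control Ezh2 scores belonged to developmental transcription factors. Foxa2, a forkhead factor of endoderm and floor plate, had Ezh2 scores of 734 in control and 438 in kd, Smarca4 scores of 136 and 35, and H3K4me3 in kd with a SICER p of 1.88e-56. Prdm12, a factor of pain-sensing neurons, had 664 and 438 for Ezh2, Pitx1, a factor of the hindlimb, 534 and 1042, and Zic1, a zinc finger factor of the neural plate, 530 and 656. All 3 had H3K4me3 in kd. Another start of Pitx1, 4767 bp away, had H3K4me3 in control. Dlx5, a homeodomain factor of the branchial arches, had 520 and 438 and no H3K4me3 in either condition.

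Among promoters with Ezh2 in kd alone, the scores were highest at Vwa2 (399), the secretase gene Bace2 (312), the potassium channel gene Kcnk4 (241), the neuronal homeodomain gene Barhl1 (230) and Hand1 (202). All 5 had H3K27me3 and Smarca4 in both conditions. Smarca4 scores were 439 in control and 232 in kd at Vwa2, 261 and 130 at Bace2, 359 and 130 at Kcnk4, and 389 and 571 at Barhl1. H3K4me3 was called in kd at the first 4 and not at Hand1, a factor of trophoblast and heart, whose Smarca4 scores were 125 and 66.

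Of the 5 promoters with the highest control Smarca4 scores, 3 belonged to genes of neurons. Cplx2, a regulator of synaptic vesicle release, had 839 in control and 898 in kd. Slc5a5, the iodide transporter of the thyroid, had 691 and 345, and Chrna3, a nicotinic receptor subunit, 577 and 262. Actl6b, the actin-like subunit of the neuronal BAF complex, had 667 and 1347. These 4 were called for H3K27me3 in both conditions and for H3K4me3 in kd. At Macf1, a linker of the cytoskeleton, a peak with score 600 reached 47 bp into the window in control, and no peak was called there in kd. Another start of Macf1, 19608 bp away, had H3K4me3 in control.

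The lowest H3K4me3 p-values in kd were partly those of islands at the edge of the window. At Apc2 the island covered 1824 bp and at Ddr1, a collagen receptor, 1980 bp. It covered 113 bp at Gfra4, 66 bp at Gm30191 and 245 bp at Sh2b2. Ddr1, Gfra4 and Sh2b2 have another start with H3K4me3 in control 2304, 406 and 1653 bp away.

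The lowest control H3K27ac p-values belonged to Mdm4, Btn2a2, Abcb1a, Dnah8 and Nr5a2. Mdm4, an inhibitor of p53, had H3K27ac with a SICER p of 1.71e-193 in control and 2.21e-288 in kd, and H3K27me3 in control alone (SICER p of 5e-28). Another start of Mdm4, 5145 bp away, had H3K4me3 in control. Abcb1a, the drug transporter P-glycoprotein, had H3K27me3 and H3K27ac in both conditions and H3K4me3 in kd with a SICER p of 2.61e-81. Dnah8, an axonemal dynein, had H3K27ac and Smarca4 in both conditions and H3K27me3 in control alone. None of the 5 had Ezh2 in either condition, beside 5.89% of the class with Ezh2 in control and 12% in kd.

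**Figure D5:**
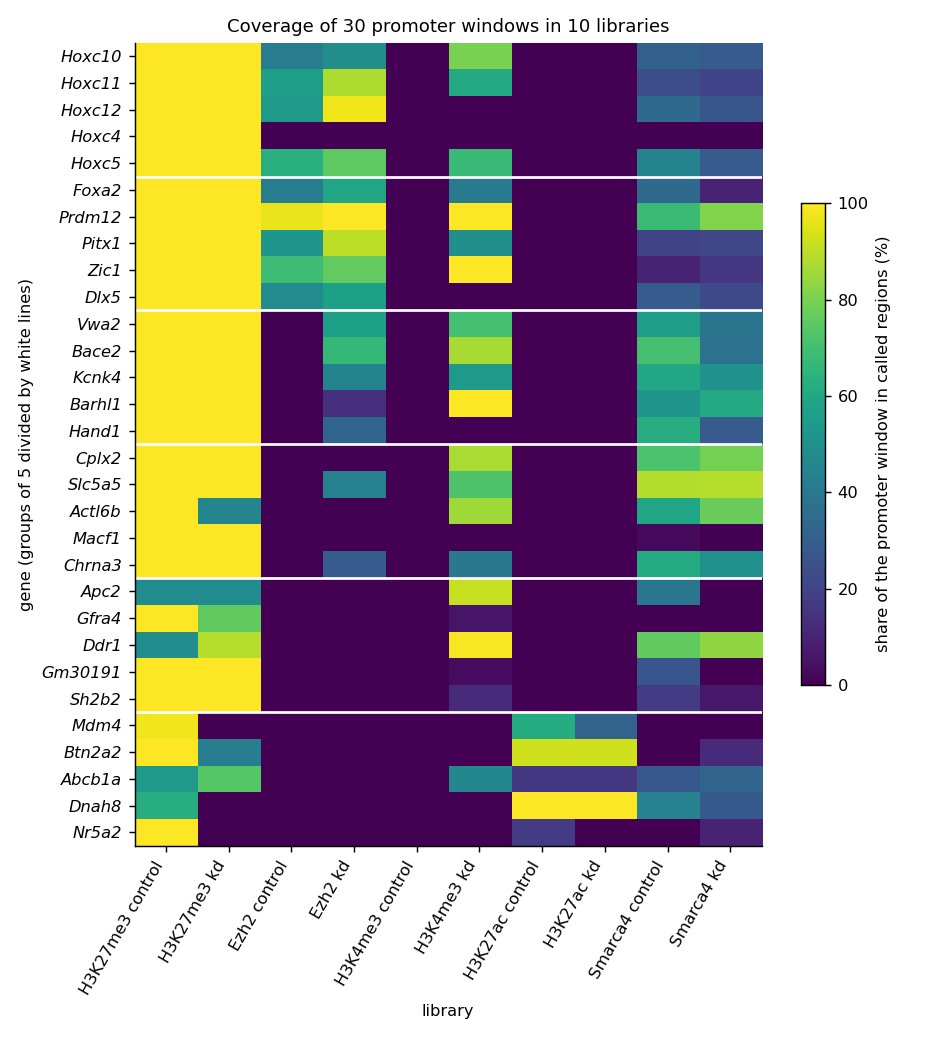
Share of the 2001 bp promoter window that lies in called regions (colour scale, percent) for 30 promoters (y axis, in 6 groups of 5) in the 10 libraries (x axis). The groups are, from the top, the lowest control H3K27me3 p, the highest control Ezh2 score, the highest kd Ezh2 score without a control peak, the highest control Smarca4 score, the lowest kd H3K4me3 p and the lowest control H3K27ac p. All 30 are covered by H3K27me3 in control, as the rule requires. The groups of the lowest kd H3K4me3 p and the lowest control H3K27ac p have no called Ezh2, like most of the class.

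Among markers of other cell types, 7 of 16 promoters were in the class, beside 13.8% of all promoters. The 7 were Hand1 of trophoblast, Gata4 and Sox17 of primitive endoderm, Col1a1, Col1a2 and Thy1 of fibroblasts and Pax6 of neural cells. Of the others, Cdx2, Eomes, Gata6, Sox7, Neurog2 and Tubb3 were bivalent, Map2 had H3K4me3 only, and Elf5 and Dcn had neither mark. All 7 in the class had H3K27me3 in both conditions, beside 67.2% of the class with H3K27me3 in kd. Gata4 had no other region in the 10 lists. Sox17 had Ezh2 scores of 91 in control and 68 in kd and a Smarca4 peak in kd alone. Other starts of Sox17 and Pax6, 3619 and 6291 bp away, had H3K4me3 in control. Col1a1, a chain of type I collagen, had Smarca4 scores of 27 and 76 and H3K4me3 in kd with a SICER p of 1.6e-51. Thy1 had Smarca4 scores of 85 and 161 and, in kd alone, Ezh2 (score 31) and H3K4me3 (SICER p of 3.4e-34).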

How the data were processed

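The deposited files are region lists of 10 libraries, and 4 background samples entered only through the authors' calling. The authors trimmed reads, aligned them to mm10 and kept unique alignments, and the submitters' processing notes name Trim Galore, Bowtie2 and SAMtools 1.9. MACS2 was used for Smarca4 and Ezh2, and SICER for H3K27me3, H3K4me3 and H3K27ac. The deposited MACS2 score is a whole number of at least 13. The deposited SICER p-value was at most 9.99e-06 for H3K27ac and 9.97e-11 for the other marks. Neither is scaled between libraries. The background is uncertain, since the methods and the sample titles name input but the antibody labels of these samples name IgG. Smarca4 and H3K27me3 were immunoprecipitated by Active Motif and the others by the authors, hence antibody and laboratory cannot be told apart. The authors' differential calls were not used.

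Regions on chromosomes 1 to 19 and X were intersected with windows of 2001 bp around the TSS of GENCODE M21 protein-coding gene records (GRCm38), with island ends read as included. The overlap step was tested on 700 simulated windows per kind of list. CpG, GC and motifs were read from RefSeq GRCm38.p6, with Python 3.11.15, pandas 2.3.3, numpy 2.4.6 and matplotlib 3.10.9. Shares have 95% Wilson intervals (scipy 1.17.1). Where 2 or more regions met a window, the strongest value is given. Genes were named by rule, 5 per extreme of each measure and up to 3 per family by lowest H3K27me3 p, besides those marked as chosen after their values were seen and the members among fixed cell type markers. The 25 families were lists of symbol prefixes. The promoters and lists were chosen with earlier results of these data known.

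Alternatives were windows of 500 bp and 2 kb either side, every TSS of protein-coding transcripts, a stricter threshold (scores from 50 upwards, and −log10 p from 10 upwards in the H3K27ac lists or 20 in those of both methylation marks), 500 bp of overlap, 1 gene per island and windows under 50% repeat-masked. Lists of equal length, exchanged roles of the conditions and omission of genes with H3K4me3 at another TSS were added after the data were seen.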

Additional observations from a re-analysis of the deposited data

How the results depend on the processing

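Shares were read as unmoved inside the main 95% interval, and the count of promoters within 1.5 times the main count. The median CpG ratio was read as unmoved inside a 95% interval of the main median, taken from binomial ranks. Counting 1 gene per island (2644 promoters), leaving out repeat-rich windows (2973) and leaving out genes with H3K4me3 at another TSS (2702) moved none of the 10 main values by these limits. Windows of 500 bp gave Ezh2 at 5.02% in control, Smarca4 at 44.9% in control and 42.4% in kd, H3K27ac at 0.765% and 4.02%, and a median CpG ratio of 0.315. Windows of 2 kb gave H3K4me3 in kd at 28.1%, Smarca4 at 52.8% and 51.5%, H3K27ac at 2.40% and 8.55%, and a ratio of 0.257. Every TSS of a transcript gave 6835 starts in the class, Ezh2 in kd at 10.4% and Smarca4 in kd at 45.1%. The stricter threshold gave H3K4me3 in kd at 30.1%, Ezh2 at 7.10% and 17.0%, Smarca4 in kd at 43.5%, H3K27ac at 0.424% and 2.90%, and a ratio of 0.332. An overlap of 500 bp gave Ezh2 at 3.22% and 8.0%, Smarca4 at 31.5% and 25.3%, and H3K27ac at 0.731% and 3.99%. Lists of equal length gave H3K27me3 in kd at 70.9%, H3K4me3 in kd at 19.8%, Ezh2 in control at 5.03% and H3K27ac in kd at 3.82%. With the roles of the conditions exchanged there were 1666 promoters, of which 83.7% had H3K27me3 and 4.62% H3K4me3 in control. Smarca4 was then called at 33.3% in kd and 37.1% in control, H3K27ac at 2.82% in kd and 1.56% in control, Ezh2 at 3.72% in control, and the CpG ratio was 0.256. The 25 family counts and the count of named genes were also read within 1.5 times. The stricter threshold moved 4 of them, every TSS 3, 1 gene per island 2 and exchanged roles 17. Omission of genes with H3K4me3 at another TSS moved 1, and the remaining alternatives moved none. The cause of these shifts was not tested.

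No paired analysis was possible because each antibody and condition has 1 library, and there was no replicate to leave out. The unknown depth of the libraries limits every comparison between conditions, and a region that is not called is not a measured absence.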

Other observations

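Several islands that held 4 or more H3K27me3-only promoters were not described above, and these were picked after their values were seen. An island of 40800 bp on chromosome 17 held Psmb8, Psmb9, Tap1 and Tap2, which process and transport peptides for MHC class I. All 4 had H3K27me3 and H3K4me3 in kd and Smarca4 in both conditions. Nearby, an island of 31000 bp held the cytokine genes Tnf, Lta and Ltb and Gm16181, of which 3 had H3K27me3 and 2 had H3K4me3 in kd. The alpha-globin genes Hba-x, Hba-a1, Hba-a2, Hbq1a and Hbq1b shared an island of 56800 bp on chromosome 11. All 5 had H3K27me3 in kd and 2 had H3K4me3. Near-identical copies such as Hba-a1 and Hba-a2 are uncertain, since only uniquely aligned reads were kept. Over the kallikrein genes Klk1, Klk1b3, Klk1b4 and Klk1b5 an island of 26400 bp was called in control, and none of the 4 had H3K27me3 or H3K4me3 in kd.

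The class was spread over all chromosomes analysed. Its share of promoters ran from 9.34% on chromosome 16 to 20.5% on chromosome 15, and was 10.8% on chromosome X. H3K27me3 was called again in kd at between 54.2% of these promoters, on chromosome 4, and 83.8%, on chromosome 18.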
